A study of Sus scrofa with 2 samples.

Results

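The nuclear-encoded respiratory chain genes were taken from the deposited tables by symbol: every row whose symbol begins with NDUFA, NDUFB, NDUFC, NDUFS or NDUFV, with UQCR, with COX4 to COX8 or with ATP5, together with SDHA, SDHB, SDHC and SDHD. The rule found 79 rows of 28155. It used names only, although it was set with earlier results of these data known. They comprised 37 subunits of complex I, 8 assembly factors of complex I (NDUFAF1 to NDUFAF8), 4 subunits of complex II, 2 of complex III, 11 rows of complex IV, 15 of complex V and 2 other genes with an ATP5 name, ATP5S and ATP5SL. NDUFA4 and NDUFA4L2 carry a complex I name but were counted with complex IV, of which NDUFA4 is now known to be a subunit. Other subunits of complexes III and IV, such as UQCRC1, UQCRFS1, COX4I1 and COX5A, were not matched by symbol and were not analysed here.

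The respiratory chain sits in the inner mitochondrial membrane. Complexes I and II pass electrons from NADH and succinate to ubiquinone, complex III passes them to cytochrome c, complex IV passes them to oxygen, and the proton gradient that complexes I, III and IV build drives ATP synthesis by complex V. Most subunits are encoded in the nucleus and imported, while a core set is encoded by mitochondrial DNA, so a working chain needs products of both genomes. Cultured stromal cells also make much of their ATP by glycolysis.

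The samples were 2 single-cell RNA sequencing libraries of adipose-derived stem cells (ADSCs), stromal cells grown out of fat, from healthy Bama miniature pigs. The fat came from the chest, and the cells were carried through 3 generations of culture in at most 14 days and then frozen. The labels name no treatment, age or sex and place both libraries in 1 group. Whether animals or cultures differed between them is not stated. The adjusted p-values below rest mainly on a spread pooled over all genes. To a smaller part they rest on how far a gene's difference between classes disagreed across these 2 libraries, which may be technical. They do not measure a spread between animals.

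Molecules were tagged with unique molecular identifiers (UMIs) near their 3' end and counted once each, so a level in CPM, the UMIs of a gene per 1000000 UMIs, is a share of molecules and was not divided by gene length. Barcodes with at least 1000 genes were kept: 10559 of 12251 in library 1 (86.2%) and 11984 of 12956 in library 2 (92.5%), with median depths of 19845 and 19651.5 UMIs. The libraries shared 46 barcode sequences. All 10 stromal markers were detected, at a summed 5696 and 7414 CPM. The 8 lists for fat, endothelial, macrophage, lymphocyte, mural, epithelial, muscle and erythroid cells each had a median below 3 CPM, and their highest sum was 91.4 and 84.5 CPM for the epithelial list, most of it KRT7.

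The members together gave 1.67% of all UMIs in library 1 and 1.63% in library 2. Complex I held 39.1% of the members' UMIs in both libraries, complex V 37.0% and 37.6%, and complex IV 18.5% and 18.1%. Complexes II and III and the assembly factors held 2.20%, 1.39% and 1.29% in library 1. Of the 79 rows, 76 had a mean over 10 CPM and 56 a mean over 100 CPM. The rows below 10 CPM were NDUFA4L2, COX8H and a second row with the symbol NDUFA4. COX8H had 0 UMIs in library 1, which allows up to 0.0176 CPM (exact Poisson 95% bound), and 1 UMI in library 2. The second NDUFA4 row had 0 UMIs in both libraries, so its locus cannot be told from the row that carried the counts.

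The highest member was ATP5G3, 1 of 3 genes that encode the same membrane ring subunit of the ATP synthase. Its level was 866 CPM in library 1 (exact Poisson 95% interval 862 to 870) and 858 in library 2 (855 to 862), rank 156 among all genes. These intervals cover counting error only. Next within complex V was ATP5L, which encodes subunit g, with 501 and 477 CPM. The other ring genes lay close together, ATP5G2 at 475 and 464 CPM and ATP5G1 at 459 and 457 CPM, so that ATP5G3 was 1.89 and 1.88 times ATP5G1. The lowest subunit genes of complex V were ATP5I (subunit e), with 127 and 113 CPM, and ATP5H (subunit d), with 303 and 288 CPM. The gene for the inhibitor of this enzyme, ATPIF1, which the rule does not take in, stood at 431 and 411 CPM, within the range of the subunit genes.

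In complex IV, COX5B led with 555 and 522 CPM, before NDUFA4 with 507 and 491 CPM and COX6C with 501 and 460 CPM. At the other end, COX7A1, the isoform typical of heart and skeletal muscle, had 11.3 and 10.7 CPM, and its broadly expressed counterpart COX7A2 had 336 and 331 CPM, which was 29.6 and 30.9 times as much. NDUFA4L2, a paralogue of NDUFA4 known as a target of the hypoxia-inducible factor, had 5.94 and 5.43 CPM. NDUFA4 exceeded it 85.3-fold and 90.4-fold.

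In complex I, NDUFS8 and NDUFS7, iron-sulphur subunits of the arm that hands electrons to ubiquinone, were among the highest genes, NDUFS8 at 432 and 411 CPM and NDUFS7 at 284 and 301 CPM. NDUFC2, a subunit of the membrane arm, had 298 and 278 CPM. The lowest were NDUFS1, which encodes the largest iron-sulphur subunit, at 24.8 and 27.5 CPM, and the accessory gene NDUFA6 at 19.1 and 18.1 CPM. Capture near the 3' end can differ between genes, so an order of levels within a complex is that of the counts. All 37 nuclear subunit genes searched for in this complex were found.

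Most assembly factors were at the low end of the members, though NDUFAF3 lay above several subunit genes, among them NDUFA1 and NDUFB1. NDUFAF3 had 90.2 and 82.2 CPM, NDUFAF8 had 37.5 and 34.8 CPM and NDUFAF2 had 18.2 and 16.1 CPM, while the lowest were NDUFAF7 at 11.6 and 12.1 CPM and NDUFAF1 at 12.9 and 9.16 CPM. In complex II, SDHB (the iron-sulphur subunit) had 124 and 121 CPM, SDHC (a membrane anchor) 125 and 105 CPM and SDHA (the flavoprotein) 104 and 100.2 CPM. SDHD, the other anchor, had 14.1 and 15.3 CPM, far below its partners in both libraries. UQCR10 and UQCRB of complex III had 141 and 139 CPM and 90.9 and 86.2 CPM. Of the remaining genes, ATP5SL stood at 68.3 and 74.5 CPM and ATP5S at 22.4 and 21.3 CPM.

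**Figure D1:**
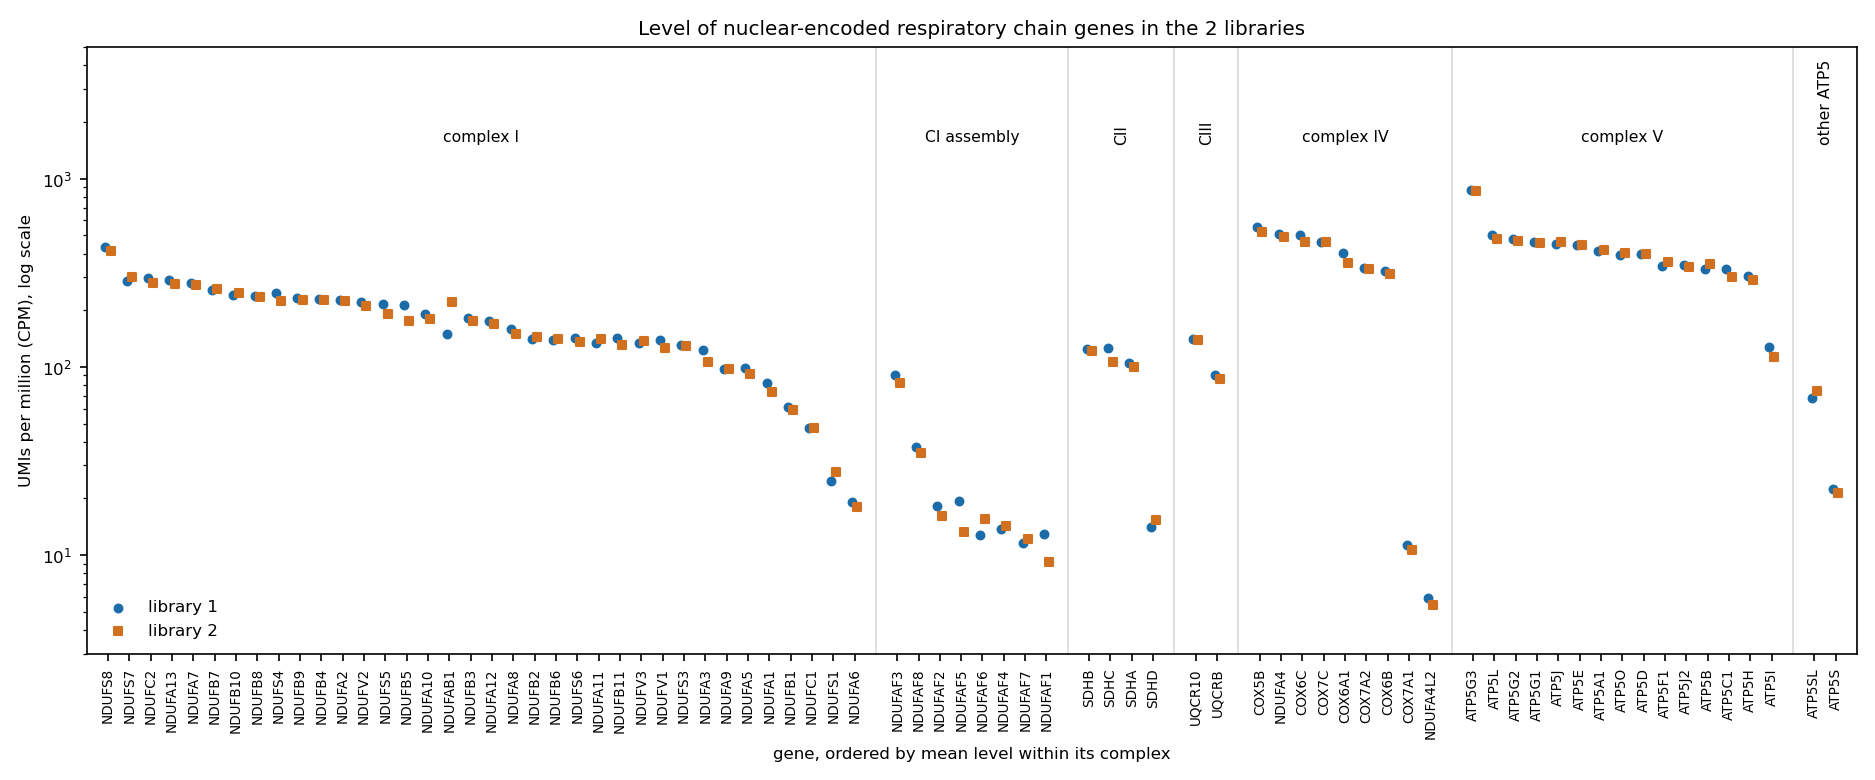
Level of the members in CPM (log axis) in library 1 (circles) and library 2 (squares), ordered by mean within its complex; the 2 rows under 1 CPM and 1 other row are not drawn. Most complex V genes lie between 288 and 501 CPM with ATP5G3 above them, and SDHD, COX7A1, NDUFA4L2 and most assembly factors lie under 20 CPM.

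The genes were short and scattered. On Sscrofa11.1, 77 members could be placed, on 18 chromosomes, with a median span of 7937 bp against 30777 bp over 8032 genes with at least 10 CPM. ATP5G3 lies at chr15:81091037-81094297, NDUFA4L2 at chr5:22540482-22548418 and ATP5B at chr5:21984750-21992393. The span of another gene overlapped 23 of the members, and the sources used here do not state whether the counting used strand, so reads of such neighbours may not be told apart. Among them were NDUFAF1 (with NUSAP1), NDUFB1 (with CPSF2), NDUFAF7 (with PRKD3) and COX6C (with VPS13B).

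The libraries were compared first, with 1 library on each side and no test. Of the 76 members with at least 10 CPM, 0 differed by 1.5-fold or more, beside 11.6% of 8042 genes at that level (5.71% higher in library 1 and 5.89% higher in library 2). The members' median log2 ratio of library 1 over library 2 was 0.04, with quartiles of -0.02 and 0.10, beside -0.04 over all these genes, with quartiles of -0.25 and 0.11. NDUFAB1, the mitochondrial acyl carrier protein, came nearest to the limit, at 149 CPM in the first library and 220 CPM in the second (log2 ratio -0.56). NDUFAF5 leaned the other way at 19.4 and 13.2 CPM (log2 ratio 0.56), followed by NDUFAF1 (log2 ratio 0.49).

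From cell to cell the members' share was narrow. After thinning every cell with at least 5000 UMIs to 5000, the median share was 1.64% in library 1 (5th to 95th percentile 1.2% to 2.12%, 9581 cells) and 1.60% in library 2 (1.18% to 2.04%, 11598 cells). Without thinning, over all kept barcodes, the medians were 1.64% and 1.60%. The variance of the summed member UMIs was 2.69 and 2.26 times its mean, above the 1 that counting alone gives, so the members varied together by more than counting noise. Taken singly they varied little. Among the 64 members with at least 0.2 UMIs per thinned cell the median variance over mean was 1.04 in both libraries, beside 1.08 and 1.06 over all genes at that level, and the highest was ATP5G3 at 1.25 and 1.19. NDUFA4L2, at 0.0304 and 0.0284 UMIs per thinned cell, had 1.41 and 1.30.

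**Figure D2:**
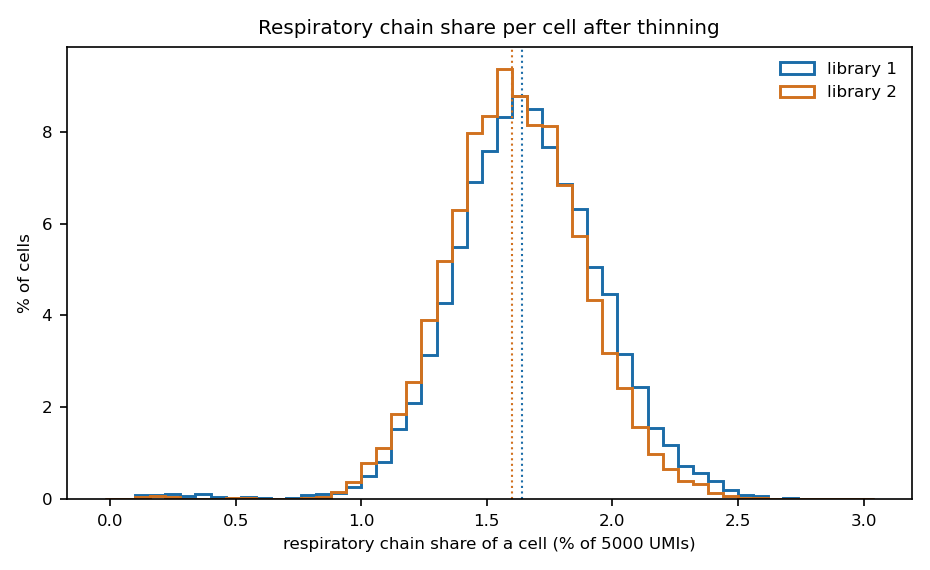
Share of each cell's UMIs from the 79 rows after thinning to 5000 UMIs (horizontal axis, percent), as the percent of cells per bin in each library; dotted lines mark the medians. The distributions have 1 peak each, with medians of 1.64% and 1.60%.

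Across thinned cells, summed complex I and complex V UMIs had a Pearson correlation of 0.36 in library 1 and 0.33 in library 2, and complex I and complex IV 0.30 and 0.21. Summed member UMIs went with those of the glycolysis and hypoxia list (0.31 and 0.23) and against those encoded by mitochondrial DNA (-0.33 and -0.21) and those of the contractile list (-0.13 and -0.16). The correlation with the logarithm of a cell's depth before thinning was 0.23 in both libraries. These are descriptions over 9581 and 11598 cells that share a library, a thinned total and a range of depth.

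The members were then compared between classes of cells drawn within each library. UMIs were summed per library and class and tested with edgeR's quasi-likelihood test with the library as a block. Fold changes were scaled by TMM, which centres them on the bulk of genes, while CPM values are shares of all UMIs, so their ratio can differ from the fold change given. A gene was called, and is said to have risen or fallen, where the Benjamini-Hochberg adjusted p over all genes was under 0.05 and both libraries had the same sign. In each comparison 77 of the 79 rows were tested. Counts of members under an alternative setting are given without the percent of all genes called in it. The comparisons draw on the same cells and are not independent of each other. Without the block edgeR called 0 members in the first 5 comparisons below; at an unadjusted p under 0.05 it then gave 12 higher and 4 lower with cycling, 0 and 0 within the cycle, 18 and 0 with glycolysis, 0 and 8 with mitochondrial RNA and 1 and 0 with the contractile genes. In each class the stromal markers stood between 4843 and 10197 CPM summed, and no list of another cell type passed 104 CPM.

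**Figure D3:**
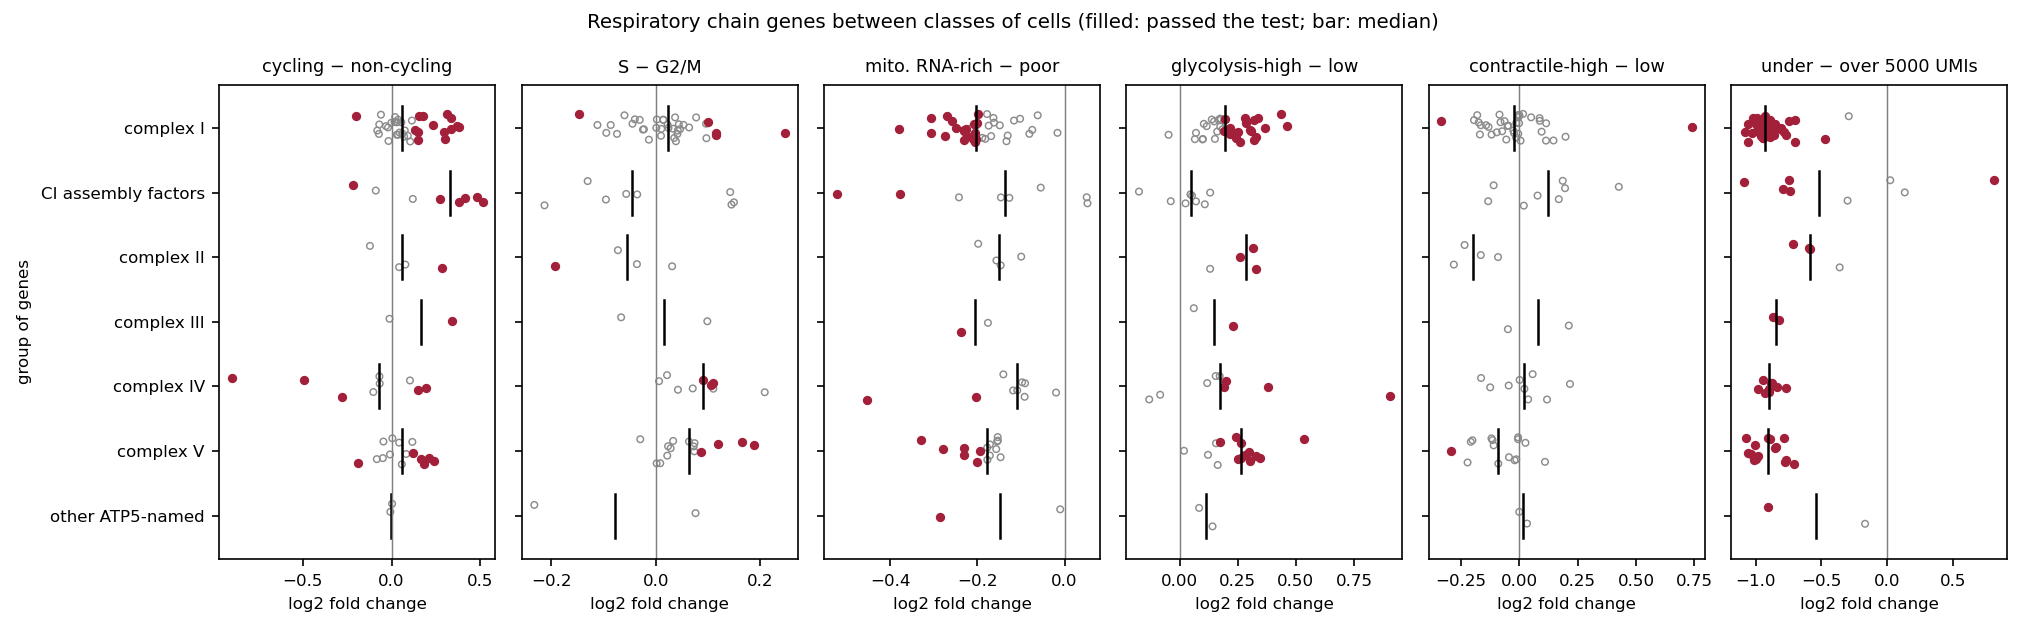
Log2 fold change (TMM scaling) of each tested member in the 6 comparisons, by complex; filled points were called, open points were not, and bars are medians. In the glycolysis panel 39 filled points lie above 0, in the mitochondrial RNA panel 31 lie below 0, and in the cycling panel the median of the assembly factors lies farthest to the right.

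In cycling cells 5 of 8 genes for complex I assembly factors were higher and 1, NDUFAF3, was lower. The 5 include NDUFAF1, whose span overlaps NUSAP1, a gene used to define cycling cells. Part of the subunit genes were higher too, while NDUFA4L2 and COX7A1, both low in these cells, were lower still. NDUFAF7 rose by 0.51 ± 0.08 and NDUFA4L2 fell by 0.90 ± 0.10 on the log2 scale. Cycling cells (3 or more of 15 core cycle genes detected in the thinned counts) were set against cells with none: 3819 and 1881 cells in library 1 and 4601 and 2498 in library 2. Median depths were 22778 and 19561 UMIs in library 1 and 20672 and 19982.5 in library 2. The classes are cuts through a range, with 697 and 784 cells at exactly 3 core genes and 1360 and 1552 cells just outside, at 2. The members' share of UMIs was 1.72% in cycling and 1.61% in non-cycling cells of library 1, and 1.69% and 1.54% in library 2. Of 77 members, 27 rose and 6 fell in cycling cells. Over all 17012 genes tested 21.2% rose and 21.9% fell, so the lower count of the members was below the background and the higher count above it. With a log2 fold change of 0.5 or more in size also required, 1 rose and 1 fell, beside 8.20% and 9.40% of all genes. The members' median log2 fold change was 0.06 beside -0.01 over all genes.

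The largest rises were among the assembly factors, of which 5 of 8 rose and 1 fell. NDUFAF7, an assembly factor with methyltransferase activity, had 13.2 CPM in cycling cells of library 1 beside 9.20 CPM in its non-cycling cells, and 14.5 and 9.44 CPM in library 2. Both cycling values lay above both non-cycling ones, with a log2 fold change of 0.51 ± 0.08 (SE, adjusted p = 6.26e-05). Its overlapping neighbour PRKD3 was not called (log2 fold change -0.09). NDUFAF5, which hydroxylates NDUFS7, had 23.1 and 15.8 CPM in library 1 and 15.7 and 10.95 CPM in library 2, a log2 fold change of 0.48 ± 0.07 (adjusted p = 5.38e-05). For NDUFAF5 the libraries themselves differed in level, while the shared direction is part of the rule for a call. NDUFAF6 and NDUFAF4 rose by 0.41 ± 0.08 and 0.38 ± 0.07 on the log2 scale. NDUFAF1 rose too, by 0.27 ± 0.08, and overlaps NUSAP1, which is 1 of the 15 genes that define the class. NDUFAF3 fell, at 85.8 and 95.5 CPM in library 1 and 78.4 and 88.1 CPM in library 2 (log2 fold change -0.22 ± 0.05).

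In complex I, 13 of 37 subunit genes rose and 1 fell. NDUFS1 had 28.6 and 20.1 CPM in library 1 and 31.1 and 24.0 CPM in library 2, a log2 fold change of 0.38 ± 0.07 (adjusted p = 0.000255). NDUFA13, an accessory subunit also known as GRIM-19, was the 1 that fell, with 271 and 308 CPM in library 1 and 263 and 282 CPM in library 2 (log2 fold change -0.20 ± 0.05). When the classes were drawn from unthinned counts its value turned to 0.03 and was not called, and 5 other named members lost their call. In that setting the classes differed in depth. Non-cycling cells had a median of 7984 UMIs against 22697 in cycling cells of library 1, and 10911 against 21793.5 in library 2. SDHB, UQCRB and 5 of 15 complex V genes rose, among them ATP5G1 (0.24 ± 0.05) and ATP5G3 (0.18 ± 0.04), and ATP5E fell (-0.19 ± 0.05).

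Complex IV went both ways, with 2 of 9 tested members up and 3 down. NDUFA4L2 fell the most: 4.32 CPM in cycling cells of library 1 beside 7.67 CPM in its non-cycling cells, and 4.13 and 7.45 CPM in library 2. The classes did not overlap, and the log2 fold change was -0.90 ± 0.10 (adjusted p = 3.30e-06). NDUFA4 rose by 0.15 ± 0.05. The isoforms of COX7A also parted. COX7A1 had 9.96 and 13.3 CPM in library 1 and 9.13 and 12.46 CPM in library 2, a log2 fold change of -0.49 ± 0.08, while COX7A2 rose by 0.19 ± 0.05. COX6C fell, at 463 and 545 CPM and 430 and 497 CPM (-0.28 ± 0.05), as did VPS13B, whose span overlaps it (-0.52 ± 0.05).

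The lists of genes that serve the chain each had more rises than falls in cycling cells. They are short, and over all genes tested 21.2% rose and 21.9% fell. Of 14 regulators of mitochondrial genes 8 rose and 2 fell, led by TWNK, the mitochondrial DNA helicase (0.86 ± 0.12), and TFB1M, a methyltransferase for mitochondrial ribosomal RNA (0.72 ± 0.06). Of 14 genes for ubiquinone and cytochrome c 6 rose and 1 fell, led by PDSS1 (0.99 ± 0.09), which makes the ubiquinone side chain, and COQ6 (0.47 ± 0.08). For the other assembly factors the counts were 7 and 1 of 19, led by BCS1L of complex III (0.55 ± 0.06) and SDHAF3 of complex II (0.40 ± 0.10), for the tricarboxylic acid cycle 8 and 1 of 16, led by PDHB (0.42 ± 0.05) and SUCLA2 (0.42 ± 0.06), and for inner and outer membrane carriers 4 and 2 of 10, led by SLC25A5 (0.29 ± 0.05) and SLC25A11 (0.28 ± 0.05). All 8 contractile genes fell in the same comparison. With scaling to totals alone 41 members rose and 6 fell, and in cells of 10000 to 30000 UMIs 20 rose and 14 fell. No percent over all genes is given for these 2 settings, so the counts cannot be set against a background.

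Cells with S phase genes and cells with mitotic genes differed little in the members. S phase cells had somewhat more of the ring subunit transcripts ATP5G1 (by 0.16 ± 0.03 on the log2 scale) and ATP5G3 and somewhat less SDHB than G2 and M cells. For this comparison, 613 and 709 cells with S phase genes were set against 1003 and 1391 cells with mitotic genes. By the core cycle genes, 12.7% and 14.0% of the S phase cells and 93.3% and 92.1% of the G2 and M cells counted as cycling, so most S phase cells lie outside the cycling class above. Other lists moved in the same comparison: 6 of 8 contractile and 7 of 19 glycolysis and hypoxia genes rose in S phase cells and 0 fell, and their part in the members' differences was not tested. The median depth was 22319 UMIs in S phase and 21313 in G2 and M cells of library 1, and 22845 and 19941 in library 2. The members' share was 1.75% in S phase and 1.69% in G2 and M cells of library 1, and 1.69% and 1.65% in library 2. In S phase cells 11 of 77 members rose and 2 fell, beside 12.2% and 11.6% of 14250 genes, and the members' median was 0.03 beside -0.00. Differences were small: 0 members were called in either direction with a log2 fold change of 0.5 or more in size, beside 4.65% and 3.09% of all genes. ATP5G1 had 524 CPM in S phase and 463 CPM in G2 and M cells of library 1, and 514 and 462 CPM in library 2, which agree closely between libraries (log2 fold change 0.16 ± 0.03, adjusted p = 0.000325). ATP5G3 had 956 and 870 CPM and 940 and 874 CPM (0.12 ± 0.02, adjusted p = 0.00083).

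ATP5I rose by 0.19 ± 0.04 and NDUFS5, a small subunit of complex I, by 0.12 ± 0.03. NDUFB1, a single-span subunit of the complex I membrane arm, rose by 0.25 ± 0.05 while its neighbour CPSF2 was not called (-0.03). SDHB fell, with 122 and 144 CPM in library 1 and 122 and 135 CPM in library 2 (-0.19 ± 0.04). The carriers had 5 of 10 up, led by SLC25A4 (0.50 ± 0.07), a muscle-type ADP/ATP carrier, and SLC25A13 (0.44 ± 0.08). Over all genes tested 12.2% rose and 11.6% fell, and several of the counts that follow lie near these shares. Among the other lists 2 genes for ubiquinone and cytochrome c rose (COQ8A, 0.74 ± 0.19, and CYCS, 0.15 ± 0.03), while in the regulators 1 rose and 2 fell, with NRF1 at -0.85 ± 0.06 and TFB1M at 0.23 ± 0.07. TTC19 (-0.60 ± 0.15) and ECSIT (-0.21 ± 0.05) fell among 19 other assembly factors, where 1 rose, and the tricarboxylic acid cycle had 3 up and 3 down of 16, with DLD (-0.20 ± 0.05) and PDHB (-0.16 ± 0.05) moving most. DESeq2 called 2 members higher and 0 lower (7 and 1 at an unadjusted p under 0.05), and cells of 10000 to 30000 UMIs gave 23 higher and 2 lower.

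Cells with more glycolysis and hypoxia transcripts also had more respiratory chain transcripts, and among the 6 comparisons the most rises were counted here. ATP5B rose by 0.54 ± 0.07 and NDUFA4L2 by 0.90 ± 0.13 on the log2 scale, and calls were made in complexes I to V but not among the assembly factors. Cells in the top 25% for 20 glycolysis and hypoxia genes were compared with the bottom 25%, 2395 cells a class in library 1 and 2899 in library 2. The cuts ran through a continuous range, at 93 and 70 UMIs of the list in library 1 and 89 and 66 in library 2, with 173 and 191 cells exactly at the upper cut. The members' share was 1.75% in high and 1.57% in low cells of library 1, and 1.68% and 1.54% in library 2. In high cells 39 of 77 members rose and 0 fell (0 also by DESeq2 and 0 at an unadjusted p under 0.05), where 10.0% of 16549 genes rose and 14.9% fell. With a log2 fold change of at least 0.5 also required, 2 rose and 0 fell, beside 2.26% and 5.99% of genes. The median was 0.19 beside -0.06 over all genes.

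In complex V, 11 of 15 genes rose. ATP5B, the catalytic beta subunit, had 367 CPM in high and 269 CPM in low cells of library 1, and 391 and 281 CPM in library 2. Both high values stood above both low values, and the log2 fold change was 0.54 ± 0.07 (adjusted p = 1.59e-07). ATP5A1, its alpha partner, rose by 0.34 ± 0.07. The ring genes were not alike in their calls: ATP5G3 and ATP5G1 rose by 0.26 ± 0.06 and 0.25 ± 0.06, while ATP5G2 had 502 and 442 CPM in library 1 but 454 and 483 CPM in library 2 and was not called (0.12 ± 0.07). The difference among them was not tested. ATPIF1 also rose (0.22 ± 0.07).

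In complex I, 20 of 37 genes rose. NDUFA9, an accessory subunit of the ubiquinone-binding region, had 107 and 81.7 CPM in library 1 and 108 and 82.4 CPM in library 2 (0.46 ± 0.08, adjusted p = 6.18e-05). The assembly factors, not called, ranged from -0.18 to 0.13 with a median of 0.05. Complex II had 3 of 4 up, SDHC (0.33 ± 0.08), SDHA (0.31 ± 0.08) and SDHB (0.26 ± 0.08), and SDHD was at 0.13 ± 0.11. UQCRB rose (0.23 ± 0.08) and UQCR10 was at 0.06 ± 0.08.

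In complex IV, 4 of 9 rose. NDUFA4L2 had 7.84 CPM in high and 4.45 CPM in low cells of library 1, and 8.17 and 4.55 CPM in library 2. With a log2 fold change of 0.90 ± 0.13 (adjusted p = 9.92e-07) it had the largest rise of the 77 members in this comparison. Its paralogue NDUFA4 had 546 and 443 CPM and 527 and 425 CPM, and rose by 0.38 ± 0.06 (adjusted p = 2.32e-05). COX7A1 was not called (-0.13 ± 0.11) and COX7A2 rose by 0.19 ± 0.07.

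**Figure D4:**
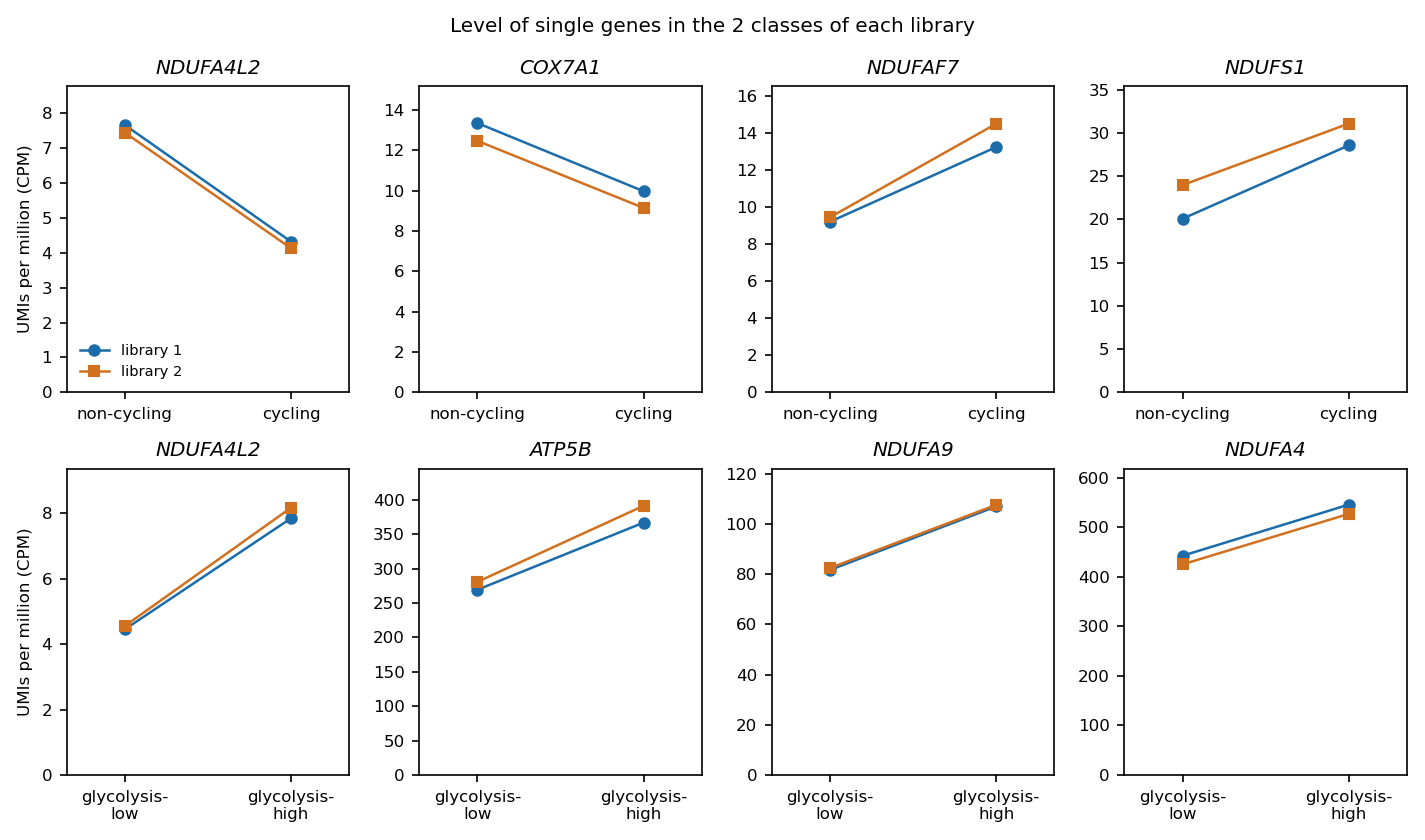
Level in CPM of NDUFA4L2, COX7A1, NDUFAF7 and NDUFS1 in non-cycling and cycling cells (top) and of NDUFA4L2, ATP5B, NDUFA9 and NDUFA4 in glycolysis-low and glycolysis-high cells (bottom); each line joins the classes of 1 library. All genes drawn were called, and a call required the same direction in both libraries. NDUFA4L2 goes from 7.67 to 4.32 CPM with cycling and from 4.45 to 7.84 CPM with glycolysis in library 1.

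Of the other lists in glycolysis-high cells, 8 of 10 carriers rose, led by SLC25A5, an ADP/ATP carrier (0.42 ± 0.08), and VDAC1, the outer membrane channel (0.40 ± 0.07). The shares over all genes tested were 10.0% higher and 14.9% lower. In the tricarboxylic acid cycle 7 of 16 rose and 1 fell, led by PDHB (0.55 ± 0.08) and IDH3B (0.34 ± 0.08). Of the 14 regulators 3 fell, among them PPARGC1A (-0.93 ± 0.33), a coactivator of mitochondrial genes, and MTERF1 (-0.57 ± 0.10). Among other assembly factors 4 of 19 rose and 1 fell, led by ACAD9 (0.36 ± 0.10) and TMEM126B (0.31 ± 0.10), and 1 of 14 ubiquinone and cytochrome c genes rose, COQ5 (0.40 ± 0.09).

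Other measures moved with the glycolysis classes. High cells were deeper, with medians of 24184 against 15943 UMIs in library 1 and 24020 against 15305 in library 2. All 8 contractile genes fell and 12 of 15 core cycle genes rose, and cycling cells made up 42.0% of high and 34.9% of low cells in library 1 and 39.9% and 37.1% in library 2. In non-cycling cells alone 20 members rose and 0 fell, and in cells of 10000 to 30000 UMIs 30 rose and 0 fell. The percent of all genes called in these settings is not given here. High cells of that depth range were still deeper, with medians of 22198 against 17581 UMIs in library 1 and 22169 against 16195 in library 2. The part of the contractile genes in the result was not tested. With scaling to totals alone 26 rose and 0 fell, and the median of the assembly factors turned to -0.02.

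Cells rich in RNA encoded by mitochondrial DNA had somewhat less of the nuclear-encoded members. NDUFAF4 and NDUFA9 fell by 0.52 ± 0.10 and 0.38 ± 0.08 on the log2 scale. These cells were also shallower. Within a narrower range of depth, where they were still shallower, the members' shares of the classes lay close together. The members' share was 1.62% in rich and 1.69% in poor cells of library 1, and 1.57% and 1.65% in library 2. The files hold 23 mitochondrial genes, all for ribosomal or transfer RNA, so the mitochondrially encoded subunits were not analysed here. These RNAs gave 0.143% of UMIs in library 1 and 0.112% in library 2. Cells in the top 25% of this share were compared with the bottom 25%, 2395 cells a class in library 1 and 2899 in library 2, at shares of 0.296% and 0.0709% of UMIs in library 1 and 0.241% and 0.0543% in library 2. Of 77 members 0 rose by edgeR (0 by DESeq2 and 0 at an unadjusted p under 0.05) and 31 fell in the rich cells, while 11.5% of 16540 genes rose and 9.70% fell. With a log2 fold change of 0.5 or more in size also required, 0 rose and 1 fell, beside 2.94% and 2.12% of genes. The median was -0.18 beside 0.04 over all genes.

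Calls lower in the rich cells came from complex I (19 of 37), complex V (6 of 15), complex IV (2 of 9), the assembly factors (2 of 8), UQCRB and ATP5S, and the complex II genes, not called, ranged from -0.20 to -0.10. NDUFAF4, an assembly factor of the ubiquinone-binding arm, had 11.04 CPM in rich and 15.7 CPM in poor cells of library 1, and 12.49 and 15.6 CPM in library 2. The log2 fold change was -0.52 ± 0.10 (adjusted p = 0.000462). NDUFA9 had 84.6 and 103 CPM and 84.3 and 101 CPM, nearly the same values in both libraries (-0.38 ± 0.08, adjusted p = 0.000826). ATP5B had 283 and 341 CPM and 313 and 353 CPM (-0.33 ± 0.07, adjusted p = 0.00156). NDUFA4L2 had 5.88 and 7.07 CPM and 4.72 and 6.33 CPM (-0.45 ± 0.13), and NDUFAF5 had 17.1 and 20.2 CPM and 11.3 and 13.9 CPM (-0.38 ± 0.10).

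Of the other lists, 6 of 10 carriers fell, led by SLC25A4 (-0.52 ± 0.09) and SLC25A5 (-0.48 ± 0.07). The shares over all genes tested were 11.5% higher and 9.70% lower. For the tricarboxylic acid cycle 6 of 16 fell, PDHB (-0.31 ± 0.08) and IDH3G (-0.29 ± 0.08) most. The genes of ubiquinone and cytochrome c had 1 up and 6 down of 14, with COQ10A at 0.85 ± 0.13 and PDSS1 at -0.46 ± 0.11, and other assembly factors 1 up and 5 down of 19, with ACAD9 (-0.44 ± 0.09) and BCS1L (-0.39 ± 0.09). The regulators had 2 up, NRF1 (0.37 ± 0.09) and GABPA (0.32 ± 0.09), both transcription factors of nuclear-encoded respiratory genes, and 1 down.

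Rich cells were shallower, with median depths of 11753 against 28831 UMIs in library 1 and 11308 against 29516 in library 2, and 32.1% against 48.1% and 35.3% against 44.9% of them were cycling. All 15 core cycle genes fell in them. In cells of 10000 to 30000 UMIs the members called lower numbered 6, in non-cycling cells 13 and with DESeq2 7. The members' share in that depth range was 1.66% in rich and 1.67% in poor cells of library 1, and 1.59% and 1.61% in library 2. Median depths within the range still differed. They were 14322 UMIs in rich and 24279 in poor cells of library 1, and 12872 and 24148 in library 2. The percent of all genes called under these alternatives is not given here. Scaling to totals alone moved the median of all genes by 0.11, to 0.15, and that of the members to -0.07, with 4 called lower and the median of complex IV at 0.00.

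Few members were called with the contractile genes: NDUFB1 rose by 0.74 ± 0.09 on the log2 scale in contractile-high cells, and ATP5B was lower. Non-cycling cells in the top 25% for 8 contractile genes (470 cells in library 1 and 624 in library 2) were compared with as many in the bottom 25%. The cuts lay at 15 and 5 UMIs of the list in library 1 and 18 and 5 in library 2. Median depths were 18593 and 20524.5 UMIs in library 1 and 21512 and 19726.5 in library 2, so depth did not lean 1 way. The members' share of UMIs was lower in contractile-high cells of both libraries. It was 1.60% in high and 1.65% in low cells of library 1, and 1.51% and 1.58% in library 2. Of 77 members 1 rose and 2 fell, below the 6.97% and 6.94% of 13106 genes, and the median was -0.02 beside -0.00. With a log2 fold change of 0.5 or more in size also required, 1 rose and 0 fell, beside 4.70% and 4.77% of genes. RLE scaling gave 1 higher and 1 lower, and scaling to totals alone 1 higher and 5 lower.

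The 1 that rose was NDUFB1, with 84.1 CPM in contractile-high and 50.8 CPM in contractile-low cells of library 1, and 80.04 and 49.1 CPM in library 2. Both libraries gave nearly the same pair of values, and the log2 fold change was 0.74 ± 0.09 (adjusted p = 0.000179). It lies at chr7:113652772-113659937 and overlaps CPSF2, a gene for a pre-mRNA cleavage factor, which was not called (0.06 ± 0.13). The next highest complex I gene in that comparison, NDUFB2, was not called (0.20 ± 0.09). ATP5B fell, with 250.04 and 322 CPM in library 1 and 293 and 355 CPM in library 2 (-0.29 ± 0.08, adjusted p = 0.0266). DESeq2 called NDUFB1 alone.

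Among the other lists in contractile-high cells the regulators had 2 up of 13 tested, MTERF1 (0.64 ± 0.18) and PPRC1 (0.38 ± 0.11), the carriers 1 up of 10, SLC25A4 (0.43 ± 0.11), and the ubiquinone and cytochrome c list 1 up of 14, CYCS (0.35 ± 0.09). PDHB was the 1 of 16 tricarboxylic acid cycle genes that fell (-0.48 ± 0.09), and among 19 other assembly factors TMEM70 rose (0.40 ± 0.11) and ATPAF1 fell (-0.40 ± 0.12), both of which serve complex V. These counts are small beside the 6.97% of all genes that rose and the 6.94% that fell.

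Depth itself went with the members' level: 70 of 77 were lower in shallow barcodes, and the assembly factor NDUFAF1 was higher. Barcodes with at least 1000 genes but under 5000 UMIs, 978 in library 1 and 386 in library 2, were set against 9581 and 11598 deeper ones. The members' share was 1.23% in shallow and 1.68% in deeper barcodes of library 1, and 1.25% and 1.63% in library 2, while mitochondrially encoded RNA was at 0.858% and 0.134% in library 1 and 1.01% and 0.108% in library 2. Of 77 members 70 were lower and 1 higher in shallow barcodes, where 20.7% of 17659 genes were lower and 13.7% higher. With a log2 fold change of at least 0.5 also required, 69 were lower and 1 higher, beside 17.4% and 10.6% of genes. The members' median was -0.89 beside -0.00 over all genes. TMM mattered here: scaling to totals alone raised the median of all genes by 0.47 and took that of the members to -0.42, with 58 members lower and 4 higher, and the median of the assembly factors was then -0.05. Complex II then had 0 of 4 genes called lower, with a median of -0.11, while complex I had 33 of 37, complex III 2 of 2, complex IV 7 of 9 and complex V 15 of 15.

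All 15 complex V genes, all 9 tested complex IV genes, both complex III genes and 36 of 37 complex I genes fell. ATP5G3 had 548 CPM in shallow and 870.5 CPM in deeper barcodes of library 1, and 616 and 860 CPM in library 2. Its log2 fold change was -1.06 ± 0.08 (adjusted p = 1.51e-36) with TMM and -0.58 with totals alone. In this comparison the weight given to the spread pooled over genes had an infinite median. Such small p-values thus rest mainly on the pooled spread and not on how closely the libraries matched. ATP5O, the stalk subunit that confers sensitivity to oligomycin, had 252 and 397 CPM and 278 and 401 CPM (-1.07 ± 0.09). NDUFAB1 had 100.04 and 150 CPM and 142 and 220 CPM (-1.08 ± 0.10). NDUFAF4 had 10.2 and 13.8 CPM and 6.83 and 14.3 CPM (-1.09 ± 0.25). The shallow sums held only 2738939 UMIs in library 1 and 1171182 in library 2, so its values there rest on few UMIs. NDUFC1, NDUFC2, NDUFS3, NDUFS8, ATP5J, ATP5J2, ATP5G1 and ATP5L, the others named by the rule, had values from -1.06 to -0.997. Shallow values lay below deeper values in both libraries for each of these genes, which were named because they were called in the same direction in both.

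A few members stood aside. NDUFAF1 rose, with 32.5 and 12.6 CPM in library 1 and 19.6 and 9.11 CPM in library 2 (0.81 ± 0.19, adjusted p = 9.78e-05), while NUSAP1, which overlaps it, fell (-0.41 ± 0.09). NDUFAF2 (0.02 ± 0.18) and NDUFAF7 (0.13 ± 0.21) were not called, nor were NDUFA6 (-0.29 ± 0.19), SDHD (-0.36 ± 0.21), NDUFAF5 (-0.30 ± 0.20) and ATP5SL (-0.17 ± 0.12). In the other lists 8 of 10 carriers fell and 2 rose, led by SLC25A4 (-0.98 ± 0.16) and SLC25A11 (-0.98 ± 0.14). The shares over all genes tested were 20.7% lower and 13.7% higher. The tricarboxylic acid cycle had 12 of 16 down, IDH3B (-1.01 ± 0.13) and SUCLG1 (-0.84 ± 0.09) most, other assembly factors 12 down and 3 up of 19, TMEM126B (-1.12 ± 0.20) and ECSIT (-0.96 ± 0.13) most, and ubiquinone and cytochrome c 8 down and 1 up of 14, COQ9 (-0.79 ± 0.16) and CYCS (-0.78 ± 0.10) most. The regulators had 4 up and 1 down of 14, led by NRF1 (0.82 ± 0.12) and MTERF1 (0.59 ± 0.17). With the limit set at 10000 UMIs, 18 members were lower and 0 higher, and NDUFAF1 was no longer called (0.27).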

How the data were processed

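Single-cell 3' libraries (chemistry version 3.1) of 2 samples of 1 group were used. The values the authors deposited are raw UMI counts for each gene in each barcode, with no normalization. Per the file headers they come from Cell Ranger 7.0.0. The submitters' processing notes name Cell Ranger 7.00 and Sscrofa11.1. Which annotation, strand setting and cell calling were used was not given in the sources used here. Barcodes with at least 1000 genes were kept. Doublets were not called. As an alternative the 8% of cells with the most UMIs were left out. Gene positions came from a RefSeq table of Sscrofa11.1, in which all 28155 symbols matched.

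Cells were sorted into classes after thinning to 5000 UMIs (random draw with a fixed seed), except that the mitochondrial share used full counts of cells with at least 5000 UMIs and the depth classes used total UMIs. The S phase list was used with 11 of its 12 genes. Full counts were summed per library and class, giving 4 sums a comparison, and fitted with edgeR 4.0.16 (R 4.3.3) with TMM, filterByExpr and robust estimation. Both classes come from each library, so the library entered as a replicate block, which leaves 1 residual degree of freedom that edgeR moderates over all genes. The prior degrees of freedom that this adds had medians of 11.2 to 36.8 over genes, and an infinite median for shallow barcodes. The 6 comparisons were each adjusted over all genes tested. Alternatives were no block, RLE scaling, no filter on low counts, DESeq2 1.42.0, other class limits and, chosen after seeing the data, cells of 10000 to 30000 UMIs and scaling to totals alone. Data simulated for the cycling comparison held 17108 genes, 100 of them changed by each size. In these data 86% of changes of 0.5 on the log2 scale and 100% of changes of 1 were called, and 0.0591% of unchanged genes. Every simulated gene had the same spread, and no gene was given a level or a change of its own in 1 library. Disagreement between libraries of that kind was thus not simulated. Smaller changes were not tested in this way. Of the 27 members called higher and 6 called lower in that comparison, 1 and 1 changed by 0.5 or more. Whether these rates hold for the real counts was not tested.

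Named were, per complex, the 3 highest and 2 lowest members by CPM and the isoform pairs. Per comparison they were the called members with a log2 fold change of at least 0.5, at most 12 in each direction, or, where fewer than 5 passed, the 5 called members of largest change in each direction. Per other list they were the 2 called genes of largest change. Other genes, such as ring subunit and complex II genes beside their partners, were named after their values were seen. The values of 1 member are not reported here, and the counts over members include it. The members and lists were chosen with earlier results of these data known. Single values carry exact Poisson 95% intervals, and fold changes carry the standard error of the fit.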

Additional observations from a re-analysis of the deposited data

Results flagged for a closer look

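Barcodes with under 1000 genes, which entered no comparison, also held member UMIs. In library 1 the members gave 1.53% of the UMIs of 1692 such barcodes (exact binomial 95% interval 1.52% to 1.55%, counting error only), beside 1.67% in the kept barcodes. In library 2 they gave 1.30% of the UMIs of 972 such barcodes (1.28% to 1.33%), beside 1.63%. At least 1 UMI was found for 77 of the 79 rows in each library. Mitochondrially encoded RNA made up 0.719% and 4.13% of the UMIs of these barcodes. They were singled out because they carry a signal outside the main measurement, and no empty-droplet control is at hand.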

How the results depend on the processing

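Without the replicate block, counts of members called were 0 higher and 0 lower in the cycling, S phase and contractile comparisons, 0 lower with mitochondrial RNA, 0 higher with glycolysis, and 0 higher (49 lower) in shallow barcodes. In edgeR without the block, 12 higher and 4 lower (cycling), 0 and 0 (S phase), 8 lower (mitochondrial RNA), 18 higher (glycolysis) and 1 higher (contractile) had an unadjusted p under 0.05. Both classes share a library, so the block follows the design. Members called lower in cycling cells numbered 14 in cells of 10000 to 30000 UMIs and 0 with classes from full counts, and members called higher 41 with totals alone; NDUFA13 turned to 0.0322 on the log2 scale with classes from full counts. For S phase, 5 were lower without a filter, 2 higher and 0 lower with DESeq2, 1 lower without the 8% of cells with the most UMIs, and 23 higher in the depth window. For mitochondrial RNA, members lower were 17 with RLE, 4 with totals alone, 7 with DESeq2, 12 without the 8% deepest cells, 6 in the depth window and 13 in non-cycling cells. For glycolysis, 20 were higher in non-cycling cells. For contractile cells, members lower were 1 with RLE, 5 with totals alone, 0 with DESeq2 (2 at an unadjusted p under 0.05), 4 without the 8% deepest cells and 4 in the depth window, and members higher were 3 without a filter and 4 with the top and bottom 10% in place of 25%. In shallow barcodes, 4 were higher with totals alone, and 0 higher and 18 lower with a limit of 10000 UMIs. The cause of these shifts was not tested, and the percent of all genes called is not given for these settings. Over the 43 gene results named by the rule, 287 of 351 values under an alternative kept direction and call, 63 kept direction and lost the call, and 1 reversed. A library alone gives no test, since it leaves no residual degrees of freedom, and a call already required the same direction in both. The count of 0 members past 1.5-fold between libraries also held with TMM and for genes of at least 1 CPM. Counting error is small for the higher members in the large sums. It is larger for low members in the shallow sums, where standard errors reached 0.37 on the log2 scale. The number of libraries is a limit throughout.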
